A study of Homo sapiens with 4 samples.

Results

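Mediator and Integrator are large complexes that meet RNA polymerase II (Pol II) near the start of a gene, and the messages of their subunits were compared between cells that lived on a wild-type or a T4A Pol II. The genes were taken by name from the count tables: protein-coding genes with the symbol MED or INTS followed by a number, the paralogs MED12L and MED13L, the kinase genes CDK8 and CDK19 with their cyclin gene CCNC, and the genes NABP1 and NABP2 of the SOSS complex. This gave 50 genes, 33 of Mediator and 17 of Integrator, among 62700 gene identifiers. All 50 had enough counts to be tested.

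Mediator is a bridge. Activators bound at enhancers touch its tail, its middle and head touch Pol II and the general initiation factors, MED14 runs through all of these as the backbone, and a detachable kinase module of MED12, MED13, cyclin C and CDK8 (or their paralogs) blocks the contact with Pol II. Integrator acts just downstream, where its INTS4, INTS9 and INTS11 module cuts the nascent RNA of small nuclear RNAs and of prematurely ended messages, and where it holds a protein phosphatase 2A (PP2A) that removes phosphates from the C-terminal domain (CTD) of RPB1, the largest Pol II subunit. Mediator binds the unphosphorylated CTD. The CTD is a tail of repeated heptads, and T4A replaces the threonine at position 4 of the heptad with alanine.

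The cells were HEK293T, a human embryonic kidney line, and both groups had been transiently transfected with an RPB1 construct that resists α-amanitin, a toxin that removes the cell's own RPB1. The CTD of the construct was wild type in the WT group and carried T4A in each repeat in the T4A group. In both groups the toxin was given 1 day after transfection, at 2.5 µg/ml for 48 hours, before poly(A) RNA was sequenced. Each group had 2 libraries, so each value below is from 2 against 2.

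The libraries held between 19257217 and 33063535 counts, and both WT libraries were deeper than both T4A libraries. POLR2A, the gene of RPB1, stood at 5370 and 5470 counts per 1000000 (CPM) in the T4A libraries and at 3766 and 2759 CPM in the WT libraries, and construct and endogenous message cannot be told apart in these counts. VIM lay between 233 and 276 CPM in the 4 libraries, the kidney gene PAX2 between 2.42 and 4.44 CPM, and KRT8 between 15.3 and 24.7 CPM. Markers of other cell types (PTPRC, CD3E, HBB, CDH5, MYH7 and INS) were at or near 0, none above 0.119 CPM, while ALB lay between 0.440 and 1.91 CPM. CPM is a share of a library scaled by TMM, so all rises and falls below are relative, and fewer cells and less RNA per cell cannot be told apart.

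To see what stood upstream of the genes that moved most, the start regions of 4 of them are shown. These are the 2 largest falls (MED13L and MED12L) and the 2 largest rises (MED11 and NABP2) among the called members for which RefSeq gave a start region, and each runs from 200 bases before to 30 bases after the start used there. For NABP2 that start lies inside the span RefSeq gives for the gene (56222015 to 56229854), so another annotated start lies upstream of the region shown, whereas for the other 3 it is the outer end of the gene. Capitals mark a match, on either strand, to one of 5 short motifs that are searched further on.
MED13L, chr12:116277664-116277893, GRCh38.p14, minus strand: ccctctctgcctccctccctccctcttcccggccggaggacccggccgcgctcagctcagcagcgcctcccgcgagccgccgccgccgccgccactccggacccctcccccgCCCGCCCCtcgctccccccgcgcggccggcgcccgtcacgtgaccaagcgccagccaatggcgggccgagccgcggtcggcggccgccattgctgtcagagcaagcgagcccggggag
MED12L, chr3:151085464-151085693, GRCh38.p14, plus strand: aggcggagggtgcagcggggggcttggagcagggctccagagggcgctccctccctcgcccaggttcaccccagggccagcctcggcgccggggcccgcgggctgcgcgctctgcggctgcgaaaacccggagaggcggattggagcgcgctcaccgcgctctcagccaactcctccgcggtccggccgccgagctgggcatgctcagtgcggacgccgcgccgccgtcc
MED11, chr17:4731228-4731457, GRCh38.p14, plus strand: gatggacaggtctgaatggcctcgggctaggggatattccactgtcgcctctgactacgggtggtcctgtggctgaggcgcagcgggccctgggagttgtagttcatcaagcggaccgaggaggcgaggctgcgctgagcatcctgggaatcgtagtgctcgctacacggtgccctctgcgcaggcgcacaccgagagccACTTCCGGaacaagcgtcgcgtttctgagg
NABP2, chr12:56224142-56224371, GRCh38.p14, plus strand: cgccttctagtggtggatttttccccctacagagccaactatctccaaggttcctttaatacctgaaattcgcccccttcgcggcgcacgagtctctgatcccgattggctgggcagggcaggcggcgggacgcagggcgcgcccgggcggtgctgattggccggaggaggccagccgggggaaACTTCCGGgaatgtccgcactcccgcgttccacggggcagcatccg
G or C made up 79.6% of the region in MED13L and 76.5% in MED12L, which fell. It made up 63.0% in MED11 and 64.8% in NABP2, which rose. In the somewhat longer start regions searched further on, the median was 62.3% over 38 members and 58.7% over all 35116 regions. All 4 regions shown thus lay above both medians. These 4 genes are too few to compare the directions, and GC content was not compared between all genes called higher and lower. MED11 and NABP2 both hold an ETS motif close to the start used, MED13L holds an SP1 motif further upstream, and MED12L holds none of the 5.

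T4A cells had less message for MED14, the Mediator backbone, MED13L and MED12L of the kinase module, and MED21 and MED1 of the middle. They also had less for INTS8 of Integrator, and more for the small head subunit MED11 and for NABP2. Of these, MED12L, MED21 and MED1 lost their calls in at least 1 alternative fit. Of the 50 genes, 4 were called higher and 10 lower in T4A (edgeR quasi-likelihood test, Benjamini-Hochberg adjusted p under 0.05 over all 18139 genes tested). Over all genes tested 10.7% were called higher and 13.0% lower. Mediator had 3 of 33 called higher and 7 lower, and Integrator 1 of 17 higher and 3 lower. The median log2 fold change was -0.02 over Mediator and -0.01 over Integrator, beside -0.01 over all genes tested, so neither complex as a whole moved apart from the rest of the transcriptome in its median. In 15 genes both T4A libraries lay above both WT libraries, in 18 both lay below, and in 17 the groups overlapped. Over all genes tested 59.0% had groups that did not overlap. Counts over the members moved with single libraries: Mediator genes called higher numbered 6 without T4A replicate 1 and 1 without T4A replicate 2, and without WT replicate 1 the genes called lower numbered 4 in Mediator and 1 in Integrator. Integrator genes called higher numbered 2 without T4A replicate 1. Over all genes tested, calls in both directions were also fewer when either WT library was left out, and changed less when a T4A library was. The balance of directions also moved with the scale: upper quartile scaling gave 6 higher and 6 lower in Mediator and 3 and 2 in Integrator (2690 and 1718 over all genes), and library totals gave 1 and 10 in Mediator and 1 and 5 in Integrator (1352 and 2987 over all genes), beside 1935 and 2351 over all genes in the fit as reported.

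**Figure D1:**
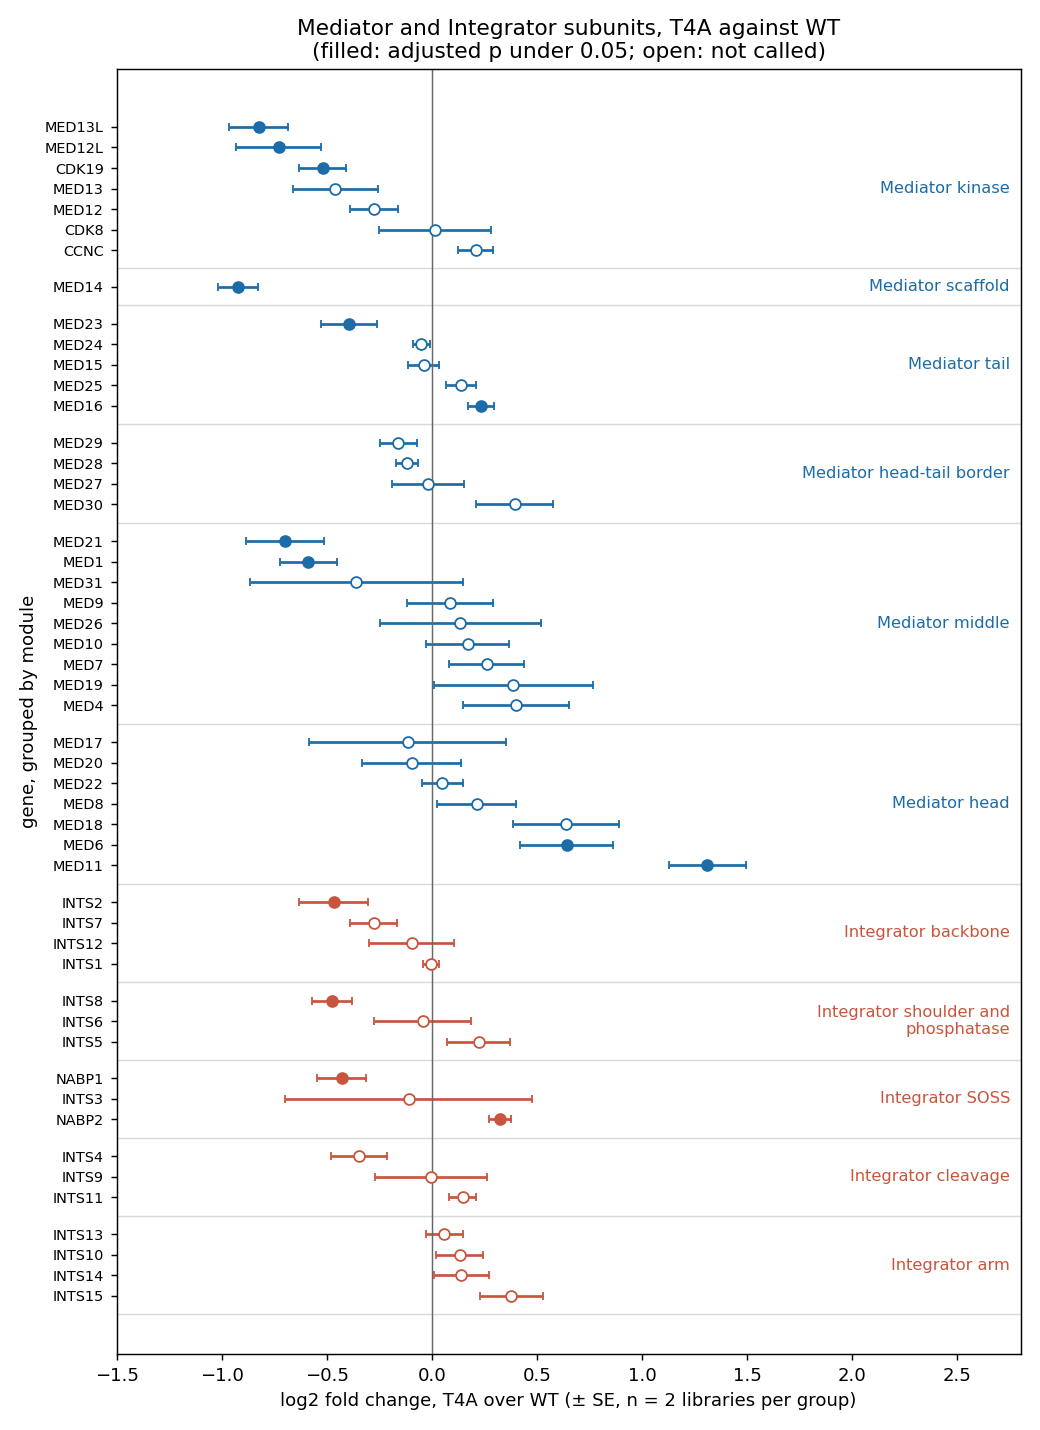
Log2 fold change of T4A over WT (x axis, ± SE, 2 libraries per group) for each of the 50 genes (y axis), grouped by module, with Mediator in blue and Integrator in red; filled points passed an adjusted p of 0.05. The lowest point is MED14 at -0.92 and the highest MED11 at 1.31, and the head is the one Mediator module with 2 genes called higher.

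MED14, which joins head, middle and tail and without which the core of Mediator does not hold together, had the largest fall. MED14 (ENSG00000180182, chromosome X, 40648305 to 40736159 on GRCh38) stood at 21.3 and 21.6 CPM in the T4A libraries and at 39.4 and 41.9 CPM in the WT libraries. The groups were far apart and each was tight. The fall was 0.92 on the log2 scale (SE 0.09, adjusted p = 4.95e-07), which is 1.90-fold, and the call held in each alternative run, including with the trend with gene length removed (log2 fold change -0.70).

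The kinase module gave 3 of its 7 genes called lower and none higher, with a median log2 fold change of -0.46. Of the 7, 4 encode proteins of over 1000 residues, a size at which 37.8% of all tested protein-coding genes were called lower, with a median of -0.33. MED13L, which with its paralog MED13 links the kinase to the core, stood at 9.28 and 9.40 CPM in the T4A libraries and at 16.1 and 17.0 CPM in the WT libraries. Its fall of 0.82 on the log2 scale (SE 0.14, adjusted p = 0.00017) was larger than the spread within either group. MED12L, a paralog of the kinase activator MED12, stood at 4.62 and 6.58 CPM against 9.38 and 9.08 CPM in WT. It fell by 0.73 (SE 0.20, adjusted p = 0.0117), and the call was lost without T4A replicate 1 (-0.49, adjusted p = 0.0778) and without WT replicate 1 (-0.70, adjusted p = 0.0688). CDK19, the kinase paralog of CDK8, stood at 21.9 and 19.6 CPM against 27.1 and 32.7 CPM. It fell by 0.52 (SE 0.11, adjusted p = 0.00169) and did not pass once WT replicate 2 was left out (-0.39, adjusted p = 0.0616).

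The better known partner of each of these paralogs did not pass. MED12 stood at 23.2 and 30.6 CPM in T4A and 33.8 and 31.1 CPM in WT, with a log2 fold change of -0.28 (adjusted p = 0.0882). Its T4A values were both below the WT values but far from each other, and it was called lower in 5 of the 14 alternatives: without T4A replicate 2 (-0.49, adjusted p = 0.000426), with library totals, with no filter, in limma-voom and with a replicate block (adjusted p = 0.0309 to 0.0488). MED13 stood at 6.60 and 4.94 CPM against 7.83 and 8.11 CPM, with a log2 fold change of -0.46 (adjusted p = 0.114), and without T4A replicate 1 it was called lower (-0.69, adjusted p = 0.0173). CDK8 stood at 3.34 and 4.62 CPM against 4.29 and 3.55 CPM, and its groups overlapped, with a log2 fold change of 0.01. CCNC, the cyclin of the kinase, stood above WT in both T4A libraries at 0.21 (adjusted p = 0.0778), and passed without T4A replicate 1 (0.26, adjusted p = 0.0304).

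Scaled by transcript length so that paralogs can be set side by side, MED12L made up 11.3% and 12.1% of the MED12 and MED12L pair in T4A against 15.1% and 15.8% in WT. MED13L made up 59.8% and 66.8% of its pair with MED13 in T4A against 68.6% and 68.9% in WT. For both pairs the T4A shares lay below the WT shares. CDK19 made up 75.8% and 67.1% of the CDK8 and CDK19 pair in T4A and 75.1% and 81.5% in WT, which overlap. The shares themselves were not tested.

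The middle module, which contacts Pol II, had 2 of its 9 genes called lower and none higher, beside 13.0% and 10.7% of all genes tested. MED1, the largest middle subunit and the docking site of nuclear receptors, stood at 14.6 and 11.1 CPM in T4A against 19.4 and 19.5 CPM in WT. The WT libraries were nearly equal, and the fall of 0.59 (SE 0.14, adjusted p = 0.00306) exceeded the spread in T4A. With the trend with length removed MED1 no longer passed (-0.39, adjusted p = 0.0608). MED21, which with MED7 forms the hinge of the module, stood at 5.50 and 6.42 CPM against 9.97 and 9.36 CPM. Its fall of 0.70 (SE 0.18, adjusted p = 0.00831) was that of a small subunit of 144 residues, and it did not pass without WT replicate 1 (-0.65, adjusted p = 0.0922). Among the 3504 protein-coding genes tested with proteins under 300 residues, 3.37% had a lower log2 fold change than MED21. The other 7 middle genes did not pass: MED31 at -0.36, MED9 at 0.09, MED26 at 0.13, MED10 at 0.17, MED7 at 0.26, MED19 at 0.39 and MED4 at 0.40. MED31 shared 58.4% of its exonic bases with TXNDC17 on the opposite strand, and TXNDC17 was itself higher in T4A (0.51, adjusted p = 1.04e-05), so the few counts given to MED31 (13 to 50 a library) carry little information.

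The head module, which grips the general factors at the promoter, had 2 of its 7 genes called higher and none lower. Of the 7, 6 encode proteins under 300 residues, a size at which 27.1% of all tested protein-coding genes were called higher and 5.96% lower, so the count is near that of genes of this size. MED11, the small partner of MED22, had the largest rise of all members. MED11 (chromosome 17, 4731428 to 4733607 on GRCh38) stood at 66.2 and 40.0 CPM in the T4A libraries and at 26.2 and 16.5 CPM in the WT libraries. The libraries of each group differed by a larger ratio than in any other called gene, but the groups did not overlap, and the rise of 1.31 (SE 0.18, adjusted p = 2.08e-05), or 2.48-fold, held in each alternative run. In DESeq2 the rise was 1.33 with a much larger SE of 0.49 (adjusted p = 0.0246). Within the size class under 300 residues, 1.26% of protein-coding genes had a higher log2 fold change than MED11. A noncoding gene on the opposite strand shares 31.2% of its exonic bases and had 0 counts in each library, and CXCL16, also on the opposite strand, shares 5.2% and had a log2 fold change of -0.22 (adjusted p = 0.505). MED6, which touches both head and middle, stood at 6.60 and 7.33 CPM against 3.96 and 4.99 CPM. It rose by 0.64 (SE 0.22, adjusted p = 0.0403), and the call was lost without T4A replicate 2 (0.56, adjusted p = 0.0867), without WT replicate 1 (0.49, adjusted p = 0.335), with library totals as the scale, with no filter and in DESeq2. MED18 had the same log2 fold change of 0.64 and missed the threshold (adjusted p = 0.0769), and it passed without T4A replicate 1 (0.97, adjusted p = 0.000758). The remaining head genes lay between -0.12 (MED17) and 0.21 (MED8), with MED20 at -0.10 and MED22 at 0.05.

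The tail, where many activators bind, had 1 gene called in each direction. MED16 stood at 119 and 133 CPM in T4A and at 111 and 103 CPM in WT. Its rise of 0.23 (SE 0.06, adjusted p = 0.0101) was lost without T4A replicate 2 (0.15, adjusted p = 0.144), without WT replicate 2 (0.18, adjusted p = 0.0978) and with library totals. MED16 shares 6.0% of its exonic bases with CFD on the opposite strand, which was also called higher (2.97, adjusted p = 0.00287) but had at most 105 counts in a library beside at least 2508 for MED16. MED23, a target of ELK1 and E1A, stood at 11.97 and 13.5 CPM against 15.5 and 17.9 CPM. It fell by 0.39 (SE 0.14, adjusted p = 0.0401), and the call was lost without T4A replicate 1 (-0.31, adjusted p = 0.172), without WT replicate 1 (-0.49, adjusted p = 0.0628) and without WT replicate 2 (-0.29, adjusted p = 0.384). In all it was lost in 8 of the 14 alternatives, among them upper quartile scaling (adjusted p = 0.107), DESeq2 (adjusted p = 0.102) and limma-voom (adjusted p = 0.0539). The other tail genes were MED24 at -0.05, MED15 at -0.04 and MED25, the target of VP16, at 0.14. Of the 4 genes at the border of head and tail none passed, with MED29 at -0.16, MED28 at -0.12, MED27 at -0.02 and MED30 at 0.39. MED30 was called higher without T4A replicate 1 (0.57, adjusted p = 0.0222).

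**Figure D2:**
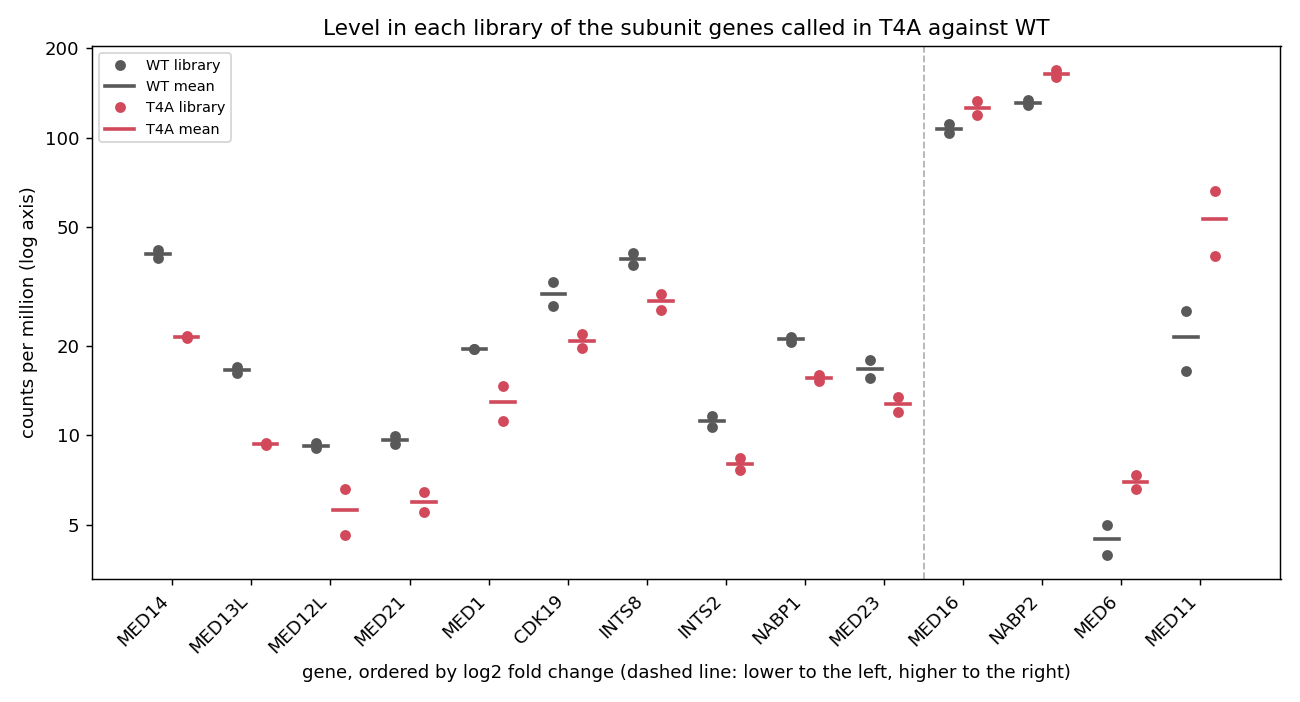
CPM on a log axis (y) in each library of the 14 genes called (x, ordered by log2 fold change), with points for the libraries and bars for the group means, WT in grey and T4A in red. MED14, MED13L and NABP2 show tight groups that lie apart, whereas the MED11 libraries spread from 40.0 to 66.2 CPM in T4A and from 16.5 to 26.2 CPM in WT.

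The changes in Integrator covered a smaller range. Its called genes were INTS8, INTS2 and NABP1, which were lower, and NABP2, which was higher, and the log2 fold changes of its 17 genes lay between -0.48 and 0.38. INTS8, which helps to hold PP2A, stood at 29.8 and 26.4 CPM in T4A and at 41.1 and 37.2 CPM in WT. It fell by 0.48 (SE 0.10, adjusted p = 0.00102), and the call held in each alternative run. INTS8 shares 20.7% of its exonic bases with CCNE2 on the opposite strand, which had a log2 fold change of -0.15 (adjusted p = 0.77). The other genes of this module, INTS6 at -0.05 and INTS5 at 0.22, did not pass, and INTS5 did without T4A replicate 1 (0.44, adjusted p = 0.0289).

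In the backbone, INTS2 stood at 8.40 and 7.64 CPM in T4A and 10.7 and 11.6 CPM in WT. Its fall of 0.47 (SE 0.16, adjusted p = 0.0458) was close to the threshold and was lost in 9 of the 14 alternatives, among them without T4A replicate 2 (-0.40, adjusted p = 0.111), without WT replicate 1 (-0.52, adjusted p = 0.142) and without WT replicate 2 (-0.41, adjusted p = 0.295). INTS2 and MED13 are neighbours on chromosome 17 with 14622 bases between them and 0 other protein-coding genes in the gap. Their log2 fold changes were alike at -0.47 and -0.46, although MED13 did not pass. Of tested genes with proteins of 1000 residues or more, 35.6% lay below INTS2 and 36.4% below MED13. The next closest members, INTS13 and MED21 with 84225 bases between them, had 0.06 and -0.70. A link to position was not tested. INTS1, the largest Integrator subunit at 2190 residues and the core of the backbone, stood at 486 and 470 CPM in T4A and at 484 and 474 CPM in WT. The groups overlapped, and the log2 fold change was -0.0026 (SE 0.04), a value that became 0.08 with upper quartile scaling and -0.08 with library totals. Among the 1997 protein-coding genes tested with proteins of 1000 residues or more, 80.2% had a lower log2 fold change than INTS1. With the trend with length removed, INTS1 was called higher instead (0.21, adjusted p = 0.000894). The last backbone genes were INTS7 at -0.28 and INTS12 at -0.10, and INTS7 was called lower without T4A replicate 2 (-0.40, adjusted p = 0.013).

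The 2 single-stranded DNA binding subunits of SOSS moved in opposite directions. NABP2 (SSB1) stood at 168 and 159 CPM in T4A and at 133 and 128 CPM in WT, and rose by 0.32 (SE 0.05, adjusted p = 0.000137), a call that held in each alternative run. NABP1 (SSB2) stood at 15.2 and 15.9 CPM against 21.3 and 20.6 CPM. It fell by 0.43 (SE 0.12, adjusted p = 0.00893). The call was lost without WT replicate 1 (-0.40) and with the trend with length removed (-0.11, adjusted p = 0.569). That trend was taken on exonic length, which for NABP1 is 17426 bases beside a reference transcript of 2269 bases. A trend with transcript length was not removed. Per transcript length, NABP2 made up 94.7% and 94.2% of the pair in the T4A libraries and 91.0% in both WT libraries. INTS3, which binds both, had only 13 to 29 counts a library, with 0.968 and 0.690 CPM in T4A and 0.685 and 1.13 CPM in WT, and overlapping groups.

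The catalytic part of Integrator was not called in either direction. INTS11, the RNA endonuclease, stood at 96.1 and 90.9 CPM in T4A and at 84.5 and 84.6 CPM in WT, above WT in both libraries, with a log2 fold change of 0.15 (adjusted p = 0.108). Its inactive partner INTS9 had a log2 fold change of -0.01 with overlapping groups. INTS4, which holds the pair, had -0.35 (adjusted p = 0.07), and was called lower without T4A replicate 2 (-0.47, adjusted p = 0.0162). All 4 genes of the arm, which reaches for other factors, had a log2 fold change above 0, from 0.06 for INTS13 through 0.13 for INTS10 and 0.14 for INTS14 to 0.38 for INTS15, and none passed (with library totals as the scale INTS13 had -0.02).

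To compare large and small subunits, each complex was split at a protein length of 550 residues. Large subunits (25 genes) had 1 gene called higher and 7 lower, and small subunits (25 genes) 3 higher and 3 lower. Of all tested genes with proteins of at least 550 residues, 4.42% were called higher and 26.5% lower, and of those with shorter proteins 18.2% were called higher and 9.51% lower. The large subunits therefore had calls at 28.0% lower and 4.0% higher, near the background of their size, and the small subunits at 12% in each direction. When single libraries were left out, calls over the members moved. Over all genes tested, calls were fewer in both directions when a WT library was left out, and changed less when a T4A library was. Without T4A replicate 1 the small subunits called higher numbered 6 and the large ones 2, and without WT replicate 1 the large subunits called lower numbered 4 and the small ones 1. Without T4A replicate 2 or without WT replicate 2 the count of large subunits called higher was 0.

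The split was wider in Mediator than in Integrator, but the groups compared were not alike in size. Median protein length was 1368 residues for large and 210 for small Mediator subunits, and 962.5 and 449 for those of Integrator. Large Mediator subunits (13 genes) had a median log2 fold change of -0.28 with 5 called lower and 1 higher, and small ones (20 genes) a median of 0.13 with 2 in each direction. Large Integrator subunits (12 genes) had a median of -0.03 with 2 called lower and 0 higher, a median that turned to 0.06 with upper quartile scaling and to 0.01 without WT replicate 1, and that was -0.19 without T4A replicate 1 and -0.07 without WT replicate 2. Small Integrator subunits (5 genes) had a median of 0.14 with 1 in each direction. Over all tested genes the medians were -0.19 for proteins of at least 550 residues and 0.08 for shorter ones. The median of large Mediator subunits lay a little below that of their size. The median of large Integrator subunits lay above it in the fit as reported. Without T4A replicate 1 their median was -0.19, and no median of genes of that size was computed in that fit. The difference between the complexes was not tested.

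The giants of Mediator carried most of its falls. Among subunits of 1000 residues or more, 5 of 7 in Mediator were called lower (MED1, MED12L, MED13L, MED14 and MED23, median log2 fold change -0.59) and 1 of 4 in Integrator (INTS2, median -0.06). Of the 1997 protein-coding genes of that size 37.8% were called lower, with a median of -0.33. MED14 stood lower than all but 6.61% of genes of that size and MED13L than all but 9.91%. From 550 to under 1000 residues, Mediator had 0 of 6 and Integrator 1 of 8 called lower, where 20.1% of such genes were. The medians there were 0.05 in Mediator and -0.03 in Integrator, both above the -0.12 of all such genes. Under 300 residues, 2 of 17 Mediator genes were called higher, where 27.1% of such genes were, with a median of 0.21 beside 0.18.

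**Figure D3:**
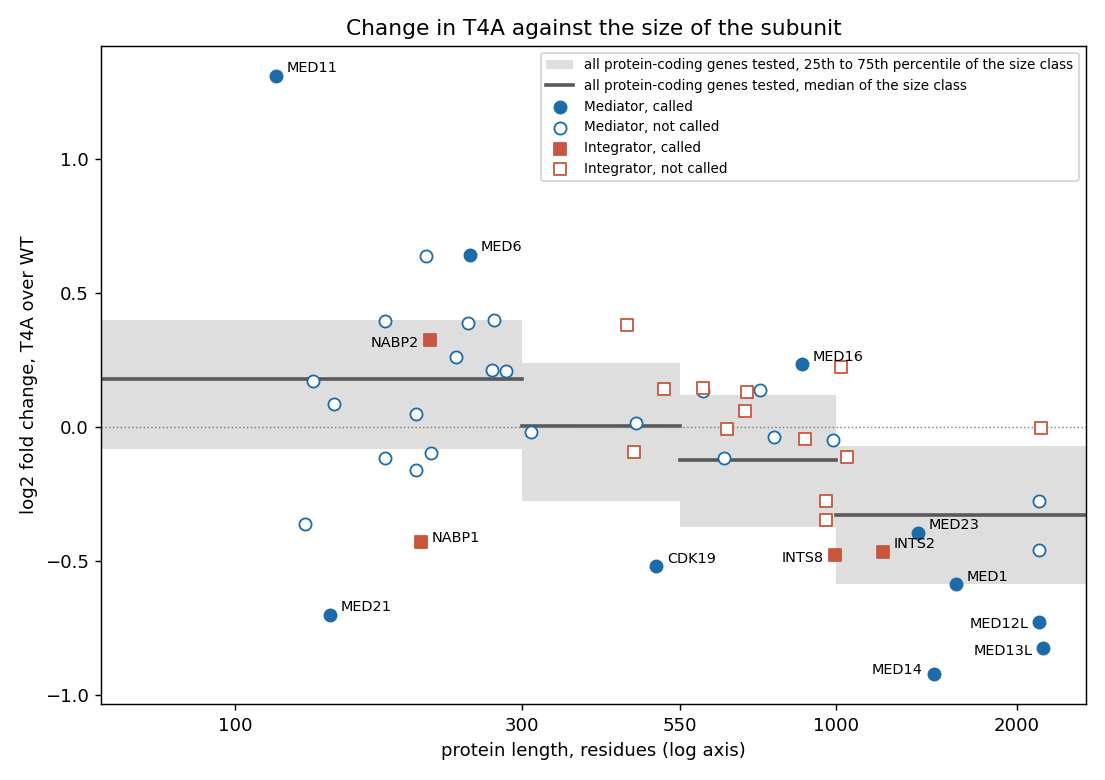
Log2 fold change of T4A over WT (y) against protein length in residues on a log axis (x) for the 50 genes, Mediator as circles and Integrator as squares, filled where called; grey bars give the median and grey boxes the 25th to 75th percentile of all tested protein-coding genes in 4 size classes divided at 300, 550 and 1000 residues. In the class of 1000 residues or more, MED14, MED13L, MED12L and, at the edge, MED1 lie below the box, and INTS1 and INTS5 above it. In the shorter classes MED21, NABP1, MED31, MED20, MED28, MED29, CDK19 and INTS8 lie below their boxes. Above their boxes in these classes lie MED6, MED18, INTS15, MED16, INTS10, INTS11, MED25 and MED26, with MED11 far above its own.

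Longer members had lower log2 fold changes. Spearman's rho between log2 fold change and the length of the reference transcript was -0.71 over the 50 genes, -0.76 in Mediator (33 genes) and -0.49 in Integrator (17 genes), beside -0.53 over the 13568 protein-coding genes tested. With protein length it was -0.47 over the members and -0.38 over all. Which length followed the change most closely differed between the complexes, since in Integrator rho was -0.75 with the genomic span and -0.65 with exonic length, while in Mediator these were -0.59 and -0.68. All these points come from the same 4 libraries, and genes are not independent replicates. Small proteins can have long messages: CDK19 has 502 residues on a transcript of 6399 bases, and MED28 has 178 residues on one of 10858 bases. Split at the members' median transcript length of 2780.5 bases, 7 of the 25 shorter genes and 20 of the 25 longer ones had a log2 fold change below 0, that is 28.0% and 80.0% (8 and 22 genes with library totals as the scale, 5 and 16 with upper quartile scaling). Among all tested protein-coding genes split at the same length it was 26.2% and 70.0%. The shorter members had 3 genes called higher and 2 lower, where 26.1% and 1.68% of all tested protein-coding genes in that length range were called, and the longer ones 1 higher and 8 lower, where 3.79% and 25.97% were.

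When the trend of log2 fold change with exonic length was removed from the fit, most of the larger falls became smaller. The median of large Mediator subunits turned from -0.28 to 0.04 and that of large Integrator subunits from -0.03 to 0.08. Mediator then had 5 genes called higher and 4 lower, and Integrator 3 higher and 1 lower. Over all 18139 genes tested, 2058 were called higher and 1308 lower in that fit, with a median of 0.04. MED14 (-0.70), MED21 (-0.74), MED13L (-0.44), CDK19 (-0.35) and INTS8 (-0.30) were still called lower, and MED11 (1.18), MED6 (0.64), MED16 (0.23) and NABP2 (0.21) were still called higher. MED1, MED12L, MED23, INTS2 and NABP1 no longer passed, whereas CCNC (0.29), MED25 (0.31), INTS11 (0.33) and INTS1 (0.21) did, all higher. NABP1 entered this fit at 17426 exonic bases, beside 2269 bases in its reference transcript. Whether length itself, or something that goes with it, moved these values was not tested.

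**Figure D4:**
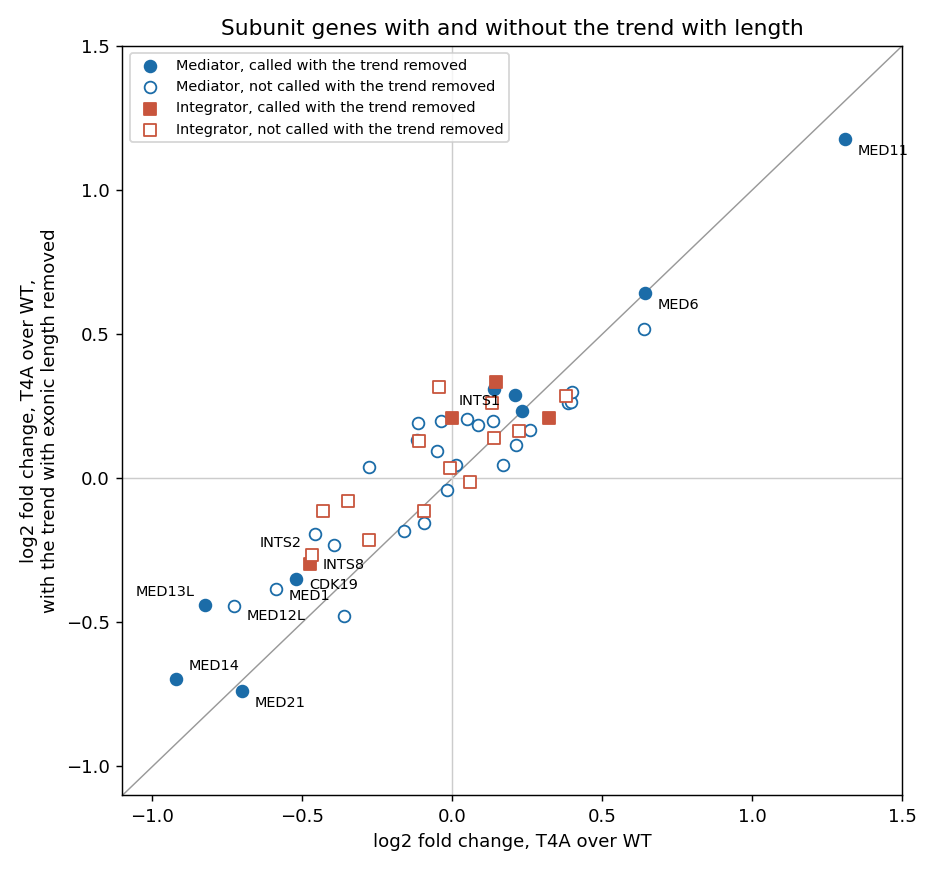
Log2 fold change of T4A over WT in the fit as reported (x) and with the trend with exonic length removed (y) for the 50 genes, Mediator as circles and Integrator as squares, filled where called with the trend removed; the line marks equal values. Most points at the lower left lie above the line (MED13L moves from -0.82 to -0.44), MED21 and MED31 lie below it, and INTS1 moves from -0.0026 to 0.21.

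The summed message of each complex changed little. The Mediator genes together made 1185 and 1178 CPM in T4A and 1210 and 1189 CPM in WT, a ratio of 0.985. The Integrator genes together made 963 and 949 CPM against 938 and 926 CPM, a ratio of 1.03. In Integrator the large subunits summed to 745 and 737 CPM in T4A and 753 and 745 CPM in WT, and the small ones to 218 and 212 CPM against 185 and 181 CPM. NABP2 alone made up 14.0% of the Integrator sum in WT and 17.1% in T4A. These sums are in CPM, which also grows with transcript length, and a few genes dominate them: INTS1 held 51.4% of the Integrator sum in WT and 50.01% in T4A, and MED24 held 32.9% and 32.2% of the Mediator sum.

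Per transcript length the subunits of a complex were far from equal. In WT cells Mediator genes had a median of 3.65 CPM per kilobase and ran from 0.30 (MED17) to 113 (MED24). MED24 stood at 379 and 383 CPM in T4A and 400 and 389 CPM in WT, and MED17 at 1.94 and 0.849 CPM against 1.46 and 1.60 CPM. Integrator genes had a median of 5.46 CPM per kilobase and ran from 0.173 (INTS3) to 93.5 (NABP2). The low end of this order is uncertain. Several genes of the general transcription machinery that every cell uses had hardly any counts in these tables (0 to 1 for TAF9 and NELFE, 2 to 10 for CDK7 and 0 for GTF2H4 in each library), and the treatment of reads that fall in more than 1 gene is not stated in the methods or labels. Low counts of INTS3, MED17 and MED31 can therefore not be read as low expression.

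The factors that work with the complexes were counted from 2 lists. Of 21 Integrator partners 18 were tested, with 4 called higher, 2 lower and a median log2 fold change of 0.15, beside 10.7% called higher and 13.0% lower over all genes tested. Those higher were SEM1 (0.44, adjusted p = 2.53e-05), PPP2R1A, the scaffold subunit of PP2A (0.20, adjusted p = 9.15e-05), BRAT1, which binds INTS9 and INTS11 (0.36, adjusted p = 9.22e-05), and NELFB, a subunit of the pausing factor NELF. Those lower were PPP2R1B, the paralog of PPP2R1A (-0.25, adjusted p = 0.0188), and SNAPC3 of the factor that starts small nuclear RNA genes (-0.30, adjusted p = 0.00654). SNAPC1, SNAPC2, SNAPC4 and SNAPC5 of the same factor had log2 fold changes from 0.13 to 0.67 and were not called. NELFA of NELF had -0.16 and was not called either. As with NABP1 and NABP2, the 2 scaffold paralogs of PP2A were called in opposite directions. INTS6L, the paralog of INTS6 that the naming rule leaves out, had a log2 fold change of -0.03.

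Of 37 Mediator partners, mostly general initiation factors and elongation kinases, 34 were tested, with 5 called higher, 3 lower and a median of 0.05, where 10.7% and 13.0% of all genes tested were called in these directions. The higher ones encode proteins of 71 to 316 residues, among them GTF2H5 of TFIIH (0.39, adjusted p = 0.000332), GTF2A2 of TFIIA (0.42, adjusted p = 0.0022) and GTF2B, which is TFIIB (0.82, adjusted p = 0.0138), with TAF10 and TAF13 of TFIID. The lower ones were CCNT1, the cyclin of the elongation kinase P-TEFb (-0.79, adjusted p = 0.000188), AFF4, the scaffold of the super elongation complex (-0.60, adjusted p = 0.000219), and TAF2, a large TFIID subunit (-0.51, adjusted p = 0.000443). TAF10, TAF13 and NELFB are named to complete their counts, outside the rule for naming partners. Outside it too, NELFA and the SNAPC genes not called are named beside called subunits of the same factor.

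RefSeq start regions of 300 bases were found for 38 of the 50 genes and searched on both strands for 5 motifs. The ETS motif CCGGAAGT was present in 10 of the 38, or 26.3%, beside 4.14% of all 35116 regions and 8.33% of the 10923 regions of tested protein-coding genes. Among the called genes, MED14, MED21 and INTS8, which fell, and MED6, which rose, had no region to search. The called genes with a region were MED11, NABP2 and MED16, which rose, and MED1, MED12L, MED13L, MED23, CDK19, INTS2 and NABP1, which fell. Of these, 2 that rose (MED11 and NABP2) and 0 that fell hold the ETS motif. The other members that hold it were not called. The YY1 motif AAGATGGC was in 5 (13.2%, beside 5.02% of tested coding genes), the SP1 motif GGGGCGGG in 13 (34.2%, beside 39.2%), the NRF1 motif GCATGCGC in 2 (5.26%, beside 5.24%) and the TATA box TATAAA in 2 (5.26%, beside 5.69%). Among the called genes with a region, the SP1 motif was in 4 that fell (MED13L, CDK19, INTS2 and NABP1) and 0 that rose. These genes are too few to compare the directions, and motif shares over all genes called higher or lower were not computed. The YY1 motif was in MED1, which fell, and MED16, which rose. A match describes the letters of the window and was not tested as a site.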

How the data were processed

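Poly(A) RNA was sequenced from 4 libraries of HEK293T cells, 2 per group, and groups were taken from the labels. The authors deposited 1 table of raw counts per gene for each library, neither normalized nor pooled. The submitters' processing notes name Trimmomatic 0.38, HISAT2 2.2.1, featureCounts 2.0.1 and build hg38, and according to the methods strand was not used. The treatment of reads that fit several genes is not stated, so counts of paralogs and of overlapping genes are uncertain.

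Genes were kept with filterByExpr (18139 of 62700) and compared in edgeR 4.0.16 (R 4.3.3) with TMM scaling, glmQLFit, glmQLFTest and Benjamini-Hochberg adjustment, and called at an adjusted p under 0.05. The SE is the log2 fold change divided by the root of its F statistic. CPM use TMM-scaled library sizes. A prior count of 2 was used for the log2 CPM behind the length trend and the check on replicate numbers, not for the log2 fold changes. The scripts were tested on simulated data. The spread was estimated jointly over genes (common biological coefficient of variation 0.114), since 2 against 2 libraries allow no exact permutation p below 33.3%. Whether replicates are separate cultures is not in the labels, and p-values reflect a spread between libraries that may be technical. Replicates differed by more than sampling noise (chi-square per degree of freedom 4.56 and 5.66).

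Symbols, transcript lengths, exonic lengths (the union of exons) and overlaps came from GENCODE release 44 lifted to GRCh37, in which 60877 identifiers were found, and coordinates and start regions from RefSeq on GRCh38. Protein length is the coding length of the reference transcript, which replaced a RefSeq protein length that was planned. The trend with length was removed with a loess curve of span 0.5. Every member is accounted for. Values in all 4 libraries are given for the called genes, the paralog pairs and the highest and lowest gene per kilobase of each complex, with further genes named after their values were seen (INTS1 and INTS11). Partners are named up to 3 per list and direction by smallest p. The members and lists were chosen with earlier results of these data known. Alternatives were DESeq2 1.42.0, limma-voom (limma 3.58.1), other scalings, filters and size limits, a replicate block, removal of the length trend and leaving out each library.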

Additional observations from a re-analysis of the deposited data

How the results depend on the processing

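Of the 14 calls, 5 (INTS8, MED11, MED13L, MED14 and NABP2) held in all 14 refits and 9 were lost in at least 1, none with a change of sign. The cause of these shifts was not tested. With upper quartile scaling the median of all genes moved to 0.08 and calls numbered 6 higher in Mediator, 3 higher in Integrator, 3 higher among large and 6 higher among small subunits. The medians were then -0.19 (large Mediator), 0.21 (small Mediator), 0.058 (large Integrator) and 0.22 (small Integrator). With library totals the median of all genes was -0.08, calls numbered 1 higher in Mediator, 5 lower in Integrator, and 0 higher and 11 lower among large subunits, and the medians were -0.35, 0.048, -0.10 and 0.062 in the same order. With the length trend removed, Mediator had 5 higher and 4 lower, Integrator 3 higher and 1 lower and large subunits 4 higher and 3 lower, with medians of 0.038 (large Mediator) and 0.082 (large Integrator). Over all genes tested 2058 were higher and 1308 lower in that fit. INTS1 was called at 0.21 there, with and without the block. With large set at 1000 residues, 0 large subunits were higher, and the medians were -0.59 (large Mediator), -0.057 (large Integrator) and -0.0066 (small Integrator). With large set at 300 residues they were -0.20 (large Mediator), 0.21 (small Mediator) and -0.053 (small Integrator). Split at the median exonic length, 0 large subunits were higher and 1 small one lower, with medians of -0.20 (large Mediator), 0.21 (small Mediator) and -0.11 (large Integrator).

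Leaving out 1 library at a time gave 1 to 6 Mediator genes higher and 4 to 8 lower, 1 to 2 Integrator genes higher and 1 to 4 lower, 0 to 2 large subunits higher and 4 to 9 lower, and 2 to 6 small subunits higher and 1 to 3 lower. Calls over all genes tested were also fewer in both directions when either WT library was left out, and changed less when a T4A library was. The medians of the subunit groups ran from -0.35 to -0.21 (large Mediator), 0.092 to 0.20 (small Mediator), -0.19 to 0.011 (large Integrator) and 0.031 to 0.24 (small Integrator).

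Across genes, the deviations of replicate 1 from replicate 2 in the 2 groups were not correlated (-0.004). This value cannot exclude a replicate effect in single genes. In MED11 replicate 1 stood above replicate 2 in both groups, and its SE went from 0.18 to 0.10 with a replicate block. With a replicate block Mediator had 3 higher and 8 lower and Integrator 1 higher and 3 lower, and the medians were -0.29, 0.12, -0.03 and 0.14. MED12 was the one member whose call changed, to lower. With the length trend removed and a replicate block, Mediator had 5 higher and 5 lower, Integrator 3 higher and 1 lower and large subunits 4 higher and 4 lower, with medians of 0.029 (large Mediator) and 0.089 (large Integrator). Over all genes tested 2191 were higher and 1398 lower in that fit.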
